A study of Rattus norvegicus with 6 samples.

Results

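The genes described are 40 genes of fatty acid oxidation and the peroxisome, chosen as a fixed list of rat symbols and read by the brightest probe of each gene. They comprise 21 genes of mitochondrial oxidation, 10 peroxisomal genes, 3 medium-chain acyl-CoA synthetases (Acsm2, Acsm3 and Acsm5), 4 genes of fatty acid uptake and activation and 2 regulators, of 11530 genes measured. All 40 were measured, and all 40 were well above background on all 6 arrays. The tissue was the renal cortex of male Sprague-Dawley (Crl:CD(SD)) rats, bought at 5 weeks of age. One group of 3 rats was given ethylenediamine dihydrochloride at 500 mg/kg/day for 4 weeks, and the other group of 3 rats was given water for 4 weeks. Total RNA was labelled with Cy3 and hybridised to Agilent arrays of 1 colour, an array for each animal, and the comparison asks which of these genes differ in the cortex after the compound.

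The kidney cortex burns fatty acids to pay for reabsorption, and its proximal tubule cells are packed with mitochondria and peroxisomes. Fatty acids enter the cell, are joined to coenzyme A by acyl-CoA synthetases, and cross the mitochondrial membranes as carnitine esters. Beta-oxidation then shortens the chain in repeated cycles of dehydrogenation, hydration, oxidation and thiolysis. Peroxisomes shorten very long and branched chains by a parallel set of enzymes, whose first step makes hydrogen peroxide that catalase removes. The nuclear receptor PPAR-alpha (Ppara), with the coactivator PGC-1-alpha (Ppargc1a), is a known regulator of many genes in both organelles.

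Signals are given as multiples of each array's 75th percentile of intensity, and are called scaled signals. A log2 fold change is ethylenediamine minus water, with its standard error from the limma fit across all genes. The arrays were made on 2 slides that were also scanned on different days. Slide 1 held ethylenediamine replicate 1 and the 3 water arrays, and slide 2 held ethylenediamine replicates 2 and 3. The spread between the slides and the spread between animals of the ethylenediamine group therefore cannot be told apart. Slide 2 held no water array, so the difference between the groups over all arrays cannot be fully told apart from slide and scan day either. Ethylenediamine replicate 1 had 35691 probes well above background, against 40516 and 40843 for the other ethylenediamine arrays and 38930 to 40563 for the water arrays. No spot was saturated.

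None of the 40 genes passed the test adjusted over all genes (limma, Benjamini-Hochberg, threshold 0.05), and 0% of the 11530 genes did in either direction. The smallest adjusted p of the fit was 0.0973 over all genes and, for Acsl1, 0.235 over the members (limma). An unadjusted p under 0.05 was reached by 4 members (10% of the 40) on the lower side, against 4.97% of all genes, and by 1 member (2.5%) on the higher side, against 5.39% of all genes. The 5 genes were Acsl1, Acsm3, Ppargc1a and Hadh on the lower side and Pdk4 on the higher side. With both directions counted, 5 of 40 members is 12.5%, near the 10.4% of all genes that reached this level. The same 5 genes are those in which the values of the groups did not overlap, where 8.27% of all genes were lower without overlap and 9.2% were higher without overlap. One member, Acsm3, was at least 1.5-fold lower, against 1.09% of all genes, and 0 members were at least 1.5-fold higher, against 2.19% of all genes.

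The count of lower members was 6 without ethylenediamine replicate 1, and 2 without ethylenediamine replicate 2, without water replicate 1 or without water replicate 3. In the fit with a block for slide it was 1, Acsl1, and the count of higher members was then 0. The median log2 fold change of the 40 members was -0.04, against -0.00 for all genes tested. Of the 40, 15 had a positive and 25 a negative log2 fold change. For 33 of the 40 members the 95% interval of the fold change lay inside 1.5-fold in both directions, as it did for 9120 of the 11530 genes. The 7 members with a wider interval were Acsm3, Pdk4, Cpt1a, Acaa2, Pex11a, Acox2 and Ppara.

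**Figure D1:**
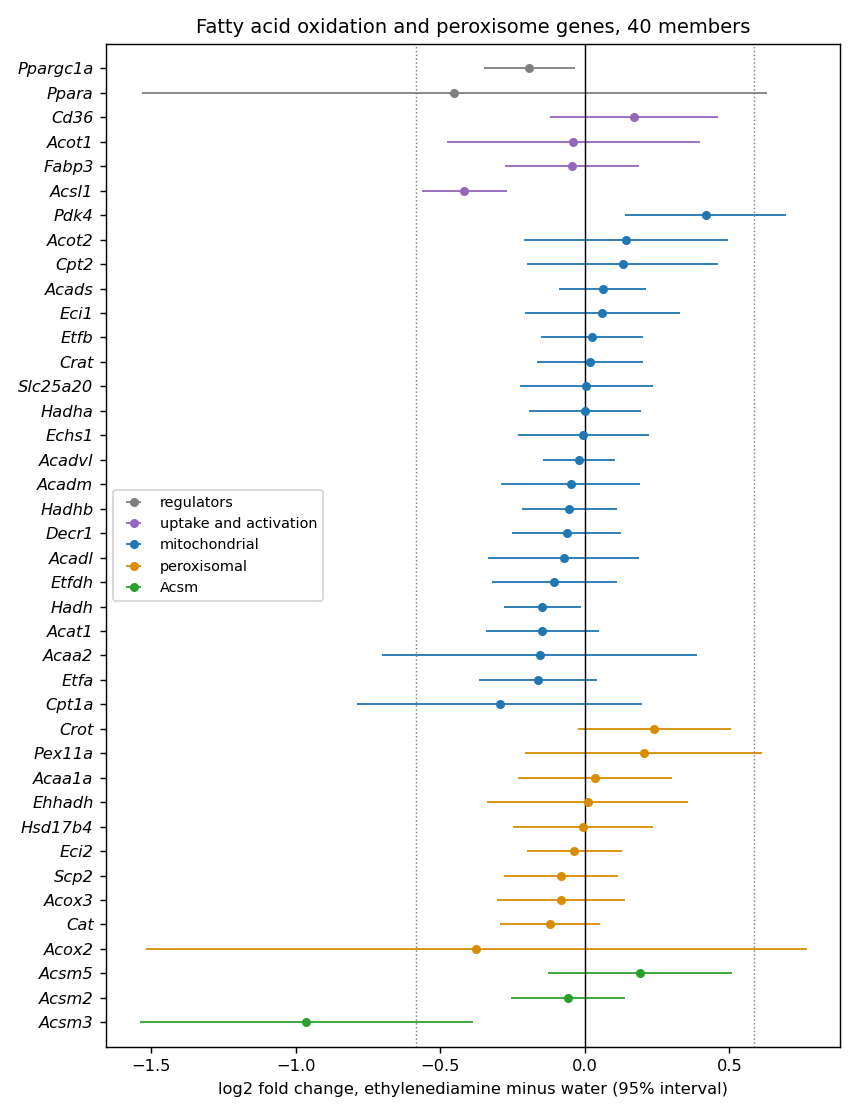
Log2 fold change of each of the 40 members, ethylenediamine minus water (horizontal axis), with its 95% interval, coloured by gene group; the dotted lines mark 1.5-fold in each direction. Most points sit near 0, with Acsm3 (-0.96) and Acsl1 (-0.42) to the left and Pdk4 (0.42) to the right, and Ppara and Acox2 carry the widest intervals.

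Among the genes of uptake and activation, Acsl1 encodes the long-chain acyl-CoA synthetase that activates fatty acids for oxidation or storage, and it had the smallest p of the 40. Its scaled signal was 39.4, 37 and 35.9 on the ethylenediamine arrays, against 51.5, 49.4 and 48.8 on the water arrays. All 3 ethylenediamine arrays lay below all 3 water arrays, and the spread within each group was small beside the gap between them. The log2 fold change was -0.42 ± 0.06 (SE, n = 3 per group; 95% interval -0.56 to -0.27), with an adjusted p of 0.235 by limma. Acsl1 was read by 4 probes, and these gave log2 fold changes of -0.42, -0.31, -0.44 and -0.45. Within slide 1, where ethylenediamine replicate 1 is set against the water arrays, the difference was -0.34. Its unadjusted p was under 0.05 in 19 of the 19 alternative analyses, of which the block for slide and slide 1 alone rest on 1 ethylenediamine array, and its adjusted p ranged from 0.124 to 0.521 in them (limma).

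The other 3 genes of this group had log2 fold changes from -0.04 to 0.17. Cd36, a membrane receptor that takes up long-chain fatty acids, had scaled signals of 4.73, 6.12 and 5.58 on the ethylenediamine arrays, against 4.59, 4.61 and 5.36 on the water arrays, and a log2 fold change of 0.17 ± 0.12. Fabp3, a cytosolic fatty acid binding protein, stood at -0.04 ± 0.09. Acot1, a cytosolic thioesterase that splits acyl-CoA, stood at -0.04 ± 0.18. Acot1 is a close paralogue of Acot2, and cross-hybridisation between them was not tested.

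The 3 medium-chain acyl-CoA synthetases had log2 fold changes from -0.96 to 0.19, and the difference between them was not tested. These enzymes lie in the mitochondrial matrix and join medium-chain fatty acids and aromatic acids to coenzyme A. Acsm3 had scaled signals of 13.5, 9.73 and 7.43 on the ethylenediamine arrays, against 16.9, 18.9 and 22.6 on the water arrays. The groups did not overlap, and the ethylenediamine arrays of slide 2 were the lowest. The log2 fold change was -0.96 ± 0.23 (95% interval -1.54 to -0.39), a 1.95-fold lower mean in the ethylenediamine group, with an adjusted p of 0.335 by limma. It was the 32nd lowest log2 fold change of the 11530 genes. Acsm3 was read by 1 probe, and cross-hybridisation between the synthetase genes was not tested. Within slide 1 the Acsm3 difference was -0.52, and the fit with a block for slide gave an adjusted p of 0.668 (limma).

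Acsm2, described in the proximal tubule of mice, had scaled signals of 205, 216 and 223 on the ethylenediamine arrays, against 204, 240 and 228 on the water arrays. The ranges overlapped almost fully, and the 95% interval of its log2 fold change ran from -0.26 to 0.14 around -0.06. Acsm5 had scaled signals of 1.68, 1.82 and 1.79 on the ethylenediamine arrays, against 1.34, 1.48 and 1.86 on the water arrays, and a log2 fold change of 0.19 ± 0.13. Without water replicate 3, which was the highest Acsm5 array, its log2 fold change was 0.33 with an adjusted p of 0.555 by limma. Acsm5 had 3 kept probes whose signs differed. Its other probes gave -0.31 and -1.07, the last from scaled signals of 2.52, 1.22 and 0.0777 on the ethylenediamine arrays and 1.98, 1.03 and 1.09 on the water arrays, so that it rests on ethylenediamine replicate 3. With all probes averaged, the median over the 3 synthetases was -0.40, the value of Acsm5, in place of -0.06.

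The 3 synthetase genes lie on the same strand of chromosome 1, near each other. The 150 bases before the annotated start of each are shown because the genes are neighbours on the chromosome, and those of Acsl1 and Pdk4 because these had the smallest p among the other members. The sequences are from RefSeq, build GRCr8, read 5′ to 3′ on the strand of the gene. The capitals mark AGGTCA, the half-site bound by many nuclear receptors, or its reverse complement TGACCT. The windows are chr1:183564502-183564651 (+) for Acsm3, chr1:183302359-183302508 (+) for Acsm5, chr1:183347555-183347704 (+) for Acsm2, chr16:52532393-52532542 (-) for Acsl1 and chr4:34568330-34568479 (-) for Pdk4.
Acsm3: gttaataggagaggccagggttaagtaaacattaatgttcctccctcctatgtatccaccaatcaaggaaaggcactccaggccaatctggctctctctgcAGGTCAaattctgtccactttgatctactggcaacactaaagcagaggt
Acsm5: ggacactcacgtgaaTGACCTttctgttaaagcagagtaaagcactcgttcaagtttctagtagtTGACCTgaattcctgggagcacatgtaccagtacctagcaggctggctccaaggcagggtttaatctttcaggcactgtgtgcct
Acsm2: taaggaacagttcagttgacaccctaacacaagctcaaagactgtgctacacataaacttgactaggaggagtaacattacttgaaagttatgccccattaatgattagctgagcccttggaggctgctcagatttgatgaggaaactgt
Acsl1: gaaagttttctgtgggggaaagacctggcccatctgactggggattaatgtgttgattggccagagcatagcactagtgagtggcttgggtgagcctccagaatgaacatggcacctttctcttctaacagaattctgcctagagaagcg
Pdk4: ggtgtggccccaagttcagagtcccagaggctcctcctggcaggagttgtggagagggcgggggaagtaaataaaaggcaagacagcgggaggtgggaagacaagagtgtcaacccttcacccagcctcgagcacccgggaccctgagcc
In the Acsm3 window the half-site begins 49 bases before the start, and in the Acsm5 window its reverse complement begins 135 and 85 bases before the start. The windows of Acsm2, Acsl1 and Pdk4 hold neither form. Over the 250 bases before the start, searched on both strands, AGGTCA was in 7 of the 37 member promoters in the RefSeq table, against 13.7% of 27457 promoters. Of these 7 promoters, 3 belong to mitochondrial genes, 2 to peroxisomal genes and 2 to the medium-chain synthetases. The direct repeat of this half-site (AGGTCA, any 1 base, AGGTCA) was in 0 of the 37 and in 0.0546% of all promoters. At that share 0 of 37 is the likely count. An exact search of 250 bases cannot show that the members lack such sites. A CCAAT box was in 14 of the 37, against 34.3% of all promoters, and the GC box GGGCGG was in 21 of the 37, against 32.4% of all promoters. The median GC content of these promoters was 58.8% for the mitochondrial genes, 59.4% for the peroxisomal genes and 44.4% for the synthetases, against 52.0% for all promoters. A match describes the letters of the window and does not show that a factor binds there. Acadl, Decr1 and Acaa2 had no entry in the table.

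**Figure D2:**
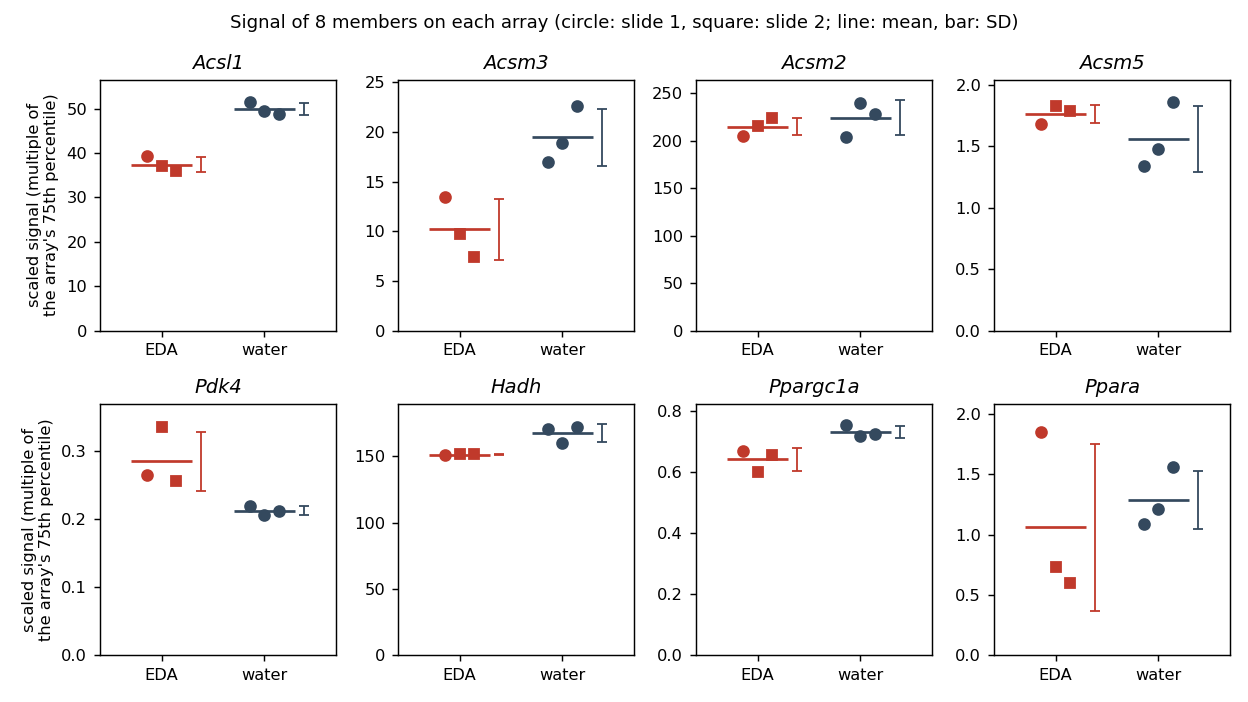
Scaled signal (multiple of the array's 75th percentile) of 8 members on each array, ethylenediamine (EDA, red) left of water (dark); circles are slide 1, squares slide 2, the line is the mean and the bar 1 SD of 3 animals. The groups are apart for Acsl1, Acsm3, Pdk4, Hadh and Ppargc1a and overlap for Acsm2, Acsm5 and Ppara, where 1 ethylenediamine array (1.86) lies above every water array.

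The 21 mitochondrial genes had a median log2 fold change of -0.02, with 9 positive and 12 negative, and ran from -0.30 for Cpt1a to 0.42 for Pdk4. Hadh was lower and Pdk4 higher at the unadjusted level. Of the 21, 18 had a 95% interval inside 1.5-fold. The median SD between animals on the log2 scale was 0.0849 in the ethylenediamine group and 0.0927 in the water group, against 0.112 in the ethylenediamine group and 0.0935 in the water group over all genes.

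Pdk4 encodes a kinase that inhibits pyruvate dehydrogenase and so spares glucose when fat is burned. Its scaled signal was 0.264, 0.335 and 0.256 on the ethylenediamine arrays, against 0.218, 0.205 and 0.212 on the water arrays. Each ethylenediamine array lay above the 3 water arrays, and ethylenediamine replicate 2 was the highest. The log2 fold change was 0.42 ± 0.11 (95% interval 0.14 to 0.70), a mean 1.34-fold higher in the ethylenediamine group, with an adjusted p of 0.355 by limma. Without ethylenediamine replicate 2 the log2 fold change was 0.30 with an adjusted p of 0.547, and within slide 1 it was 0.32.

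Of the enzymes of the carnitine shuttle, Cpt1a makes acylcarnitine at the outer membrane and is the step on which malonyl-CoA acts. Its scaled signal was 9.14, 8.53 and 6.79 on the ethylenediamine arrays, against 12.7, 7.96 and 9.66 on the water arrays. The ranges overlapped, and the log2 fold change was -0.30 ± 0.20 (95% interval -0.79 to 0.20). Slc25a20, the carrier that moves acylcarnitine inward, stood at 0.01 ± 0.09, Cpt2, which returns the acyl group to coenzyme A, at 0.13 ± 0.13, and carnitine acetyltransferase (Crat) at 0.02 ± 0.07. Crat was also read by a dimmer probe at -0.14, and was 1 of the 5 members whose probes differed in sign among the 15 with more than 1 kept probe.

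Each of the 4 acyl-CoA dehydrogenases, which take chains of different length into the first step of the cycle, had an interval inside 1.5-fold. The medium-chain enzyme Acadm had scaled signals of 69.2, 80.3 and 86.6 on the ethylenediamine arrays, against 83.6, 76.4 and 83.3 on the water arrays, and a log2 fold change of -0.05 ± 0.10 (95% interval -0.29 to 0.19). Ethylenediamine replicate 1 was the lowest array, and within slide 1 the Acadm difference was -0.23. The very-long-chain enzyme Acadvl stood at -0.02 ± 0.05, the long-chain enzyme Acadl at -0.07 ± 0.11 and the short-chain enzyme Acads at 0.06 ± 0.06.

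Electrons from these dehydrogenases pass through the electron transfer flavoprotein and its oxidoreductase. The subunits Etfa and Etfb stood at -0.16 ± 0.08 and 0.03 ± 0.07, and the oxidoreductase Etfdh at -0.11 ± 0.09. The adjusted p of Etfa was 0.559 by limma. Within slide 1 Etfa was at -0.04, and without ethylenediamine replicate 1 at -0.22 with an adjusted p of 0.344.

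In the later steps of the cycle, Hadh encodes the hydroxyacyl-CoA dehydrogenase that acts on short and medium chains. Its scaled signal was 151, 152 and 152 on the ethylenediamine arrays, against 171, 160 and 172 on the water arrays. The groups did not overlap, and the ethylenediamine arrays lay within 1 unit of each other. The difference was small, with a log2 fold change of -0.15 ± 0.05 (95% interval -0.28 to -0.01) and an adjusted p of 0.456 by limma. The second Hadh probe gave -0.24. The Hadh signal was under an unadjusted p of 0.05 in 10 of 19 alternatives.

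The subunits of the trifunctional protein, which carries the last 3 steps for long chains, stood at 0.00 ± 0.08 for Hadha and -0.05 ± 0.07 for Hadhb. The hydratase Echs1 stood at -0.00 ± 0.09. The isomerase Eci1 stood at 0.06 ± 0.11 and the dienoyl-CoA reductase Decr1 at -0.06 ± 0.08, both of which act on unsaturated chains. The thiolase Acaa2 stood at -0.16 ± 0.22, and its width came from ethylenediamine replicate 2, with scaled signals of 71.8, 43.7 and 75.8 on the ethylenediamine arrays and 75.9, 64.8 and 66.9 on the water arrays. Both Acaa2 probes dipped on that array. Acat1, the acetoacetyl-CoA thiolase, stood at -0.15 ± 0.08, with scaled signals of 22.6, 19.7 and 19.9 on the ethylenediamine arrays and 22.1, 22.3 and 24.4 on the water arrays. The mitochondrial thioesterase Acot2 stood at 0.14 ± 0.14.

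**Figure D3:**
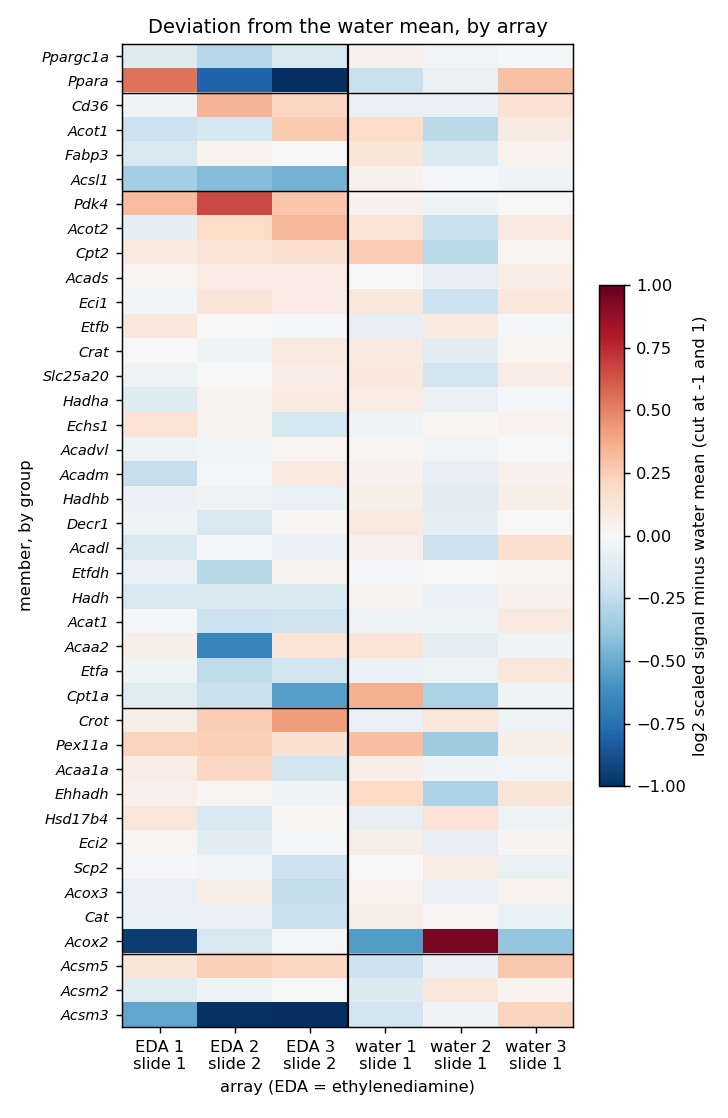
Log2 scaled signal minus the mean of the 3 water arrays, for each member (rows, by gene group) on each array (columns, with the slide); red is above and blue below the water mean, and the colours stop at -1 and 1. Acsl1 and Acsm3 are blue and Pdk4 is red on all 3 ethylenediamine arrays (EDA), while most mitochondrial and peroxisomal rows stay pale and water 2 is pale blue in many mitochondrial rows.

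The 10 peroxisomal genes had a median log2 fold change of -0.02, with 4 positive and 6 negative, and none reached an unadjusted p of 0.05 by limma in either direction. For 8 of the 10 the interval lay inside 1.5-fold. Within slide 1 the median was 0.04. The median SD on the log2 scale was 0.123 in the ethylenediamine group and 0.0876 in the water group.

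Catalase (Cat), which breaks down hydrogen peroxide, had scaled signals of 8.05, 8.09 and 7.25 on the ethylenediamine arrays, against 8.81, 8.53 and 8.08 on the water arrays. The ranges overlapped by a narrow margin, and the log2 fold change was -0.12 ± 0.07 (95% interval -0.29 to 0.05) with an adjusted p of 0.600 by limma. Ehhadh, the bifunctional enzyme that is a classic PPAR-alpha target in rat liver, had scaled signals of 10.8, 10.6 and 10.2 on the ethylenediamine arrays, against 12, 8.43 and 11.4 on the water arrays. The ethylenediamine values lay inside the range of the water values, and the log2 fold change was 0.01 ± 0.14 (95% interval -0.34 to 0.36).

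Crot, which makes carnitine esters of the medium chains that leave the peroxisome, had scaled signals of 8.01, 9.14 and 10.2 on the ethylenediamine arrays, against 7.35, 8.31 and 7.44 on the water arrays. It had the highest log2 fold change of the 10, 0.24 ± 0.11 (95% interval -0.02 to 0.51), with an adjusted p of 0.508 by limma, and the ranges overlapped through ethylenediamine replicate 1 and water replicate 2. Pex11a, a membrane protein that takes part in peroxisome division, stood at 0.20 ± 0.17, with water replicate 2 the lowest array at 33.9.

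The bile acid and branched-chain oxidase Acox2 had scaled signals of 0.0617, 0.107 and 0.117 on the ethylenediamine arrays, against 0.0811, 0.23 and 0.0906 on the water arrays. Its log2 fold change of -0.37 ± 0.46 rested on water replicate 2. The oxidase Acox3 stood at -0.08 ± 0.09, the thiolase Acaa1a at 0.03 ± 0.11, the D-bifunctional enzyme Hsd17b4 at -0.01 ± 0.10, the sterol carrier and thiolase Scp2 at -0.08 ± 0.08 and the isomerase Eci2 at -0.04 ± 0.07.

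Of the regulators, Ppargc1a had scaled signals of 0.669, 0.6 and 0.655 on the ethylenediamine arrays, against 0.754, 0.717 and 0.724 on the water arrays. The groups did not overlap, and the log2 fold change was -0.19 ± 0.06 (95% interval -0.35 to -0.03), with an adjusted p of 0.414 by limma. It was -0.13 within slide 1, and the fit with a block for slide gave an adjusted p of 0.810 (limma).

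Ppara had scaled signals of 1.86, 0.73 and 0.596 on the ethylenediamine arrays, against 1.09, 1.22 and 1.56 on the water arrays. Ethylenediamine replicate 1 was the highest of the 6 arrays and the ethylenediamine arrays of slide 2 were the lowest. The log2 fold change was -0.45 ± 0.44 (95% interval -1.53 to 0.63) over all arrays, and both probes of the gene gave like values (-0.45 and -0.49). Without ethylenediamine replicate 1 it was -0.95 with an adjusted p of 0.208 by limma, and within slide 1 it was 0.54, the opposite sign. The proximal straight tubule genes Slc7a13 and Slc22a7 also set the 2 slides apart in the ethylenediamine group. They were picked from 14 proximal tubule markers after their values were seen. The median deviation of those 14 from the water mean was -0.04, 0.03 and -0.00 on the ethylenediamine arrays. Slc7a13 had scaled signals of 4.8, 38.7 and 53.9 on the ethylenediamine arrays and 7.32, 7.92 and 14.9 on the water arrays. Slc22a7 had 0.0468, 0.493 and 0.472 on the ethylenediamine arrays and 0.0726, 0.0523 and 0.148 on the water arrays. It was well above background on 2 of the 3 ethylenediamine arrays. The part of Slc7a13 and Slc22a7 in the Ppara and Acsm3 values was not tested.

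Set side by side, the median log2 fold change was -0.02 for the mitochondrial genes, -0.02 for the peroxisomal genes and -0.06 for the medium-chain synthetases, against -0.00 for all genes tested. On single arrays, the median deviation of the mitochondrial genes from the water mean was -0.05, -0.01 and 0.03 in the ethylenediamine group, against 0.05, -0.08 and 0.03 in the water group. The ethylenediamine values lay inside the range of the water values. For the peroxisomal genes the deviations were 0.04, -0.00 and -0.03 in the ethylenediamine group, against 0.05, -0.01 and -0.04 in the water group, and again did not leave that range. The 3 synthetases ran from -0.12 to -0.00 in the ethylenediamine group and from -0.19 to 0.23 in the water group. No test of the difference between the gene groups was made.

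The mitochondrial medians ranged more widely among the water animals than among the ethylenediamine animals. Water replicate 2 was the lowest of the 3 water arrays for 16 of the 21 mitochondrial genes (76.2%) and for 24 of the 40 members, where it was the lowest for 35% of all genes. It was also the lowest for 5 of the 10 peroxisomal genes, while water replicate 1 was the lowest for 3 of the 3 synthetases. Among other lists, water replicate 2 was the lowest for 25 of 38 genes of the PPAR pathway and storage, 12 of 19 of uptake, binding and activation, 7 of 7 leukocyte markers and 7 of 14 proximal tubule markers. It was the lowest for 0 of 9 markers of the distal tubule and collecting duct and 0 of 8 of the glomerulus, and the highest for 6 of 9 and 5 of 8 of them. Without that array the mitochondrial median was -0.08, and the counts of members at an unadjusted p under 0.05 were still 4 lower and 1 higher.

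**Figure D4:**
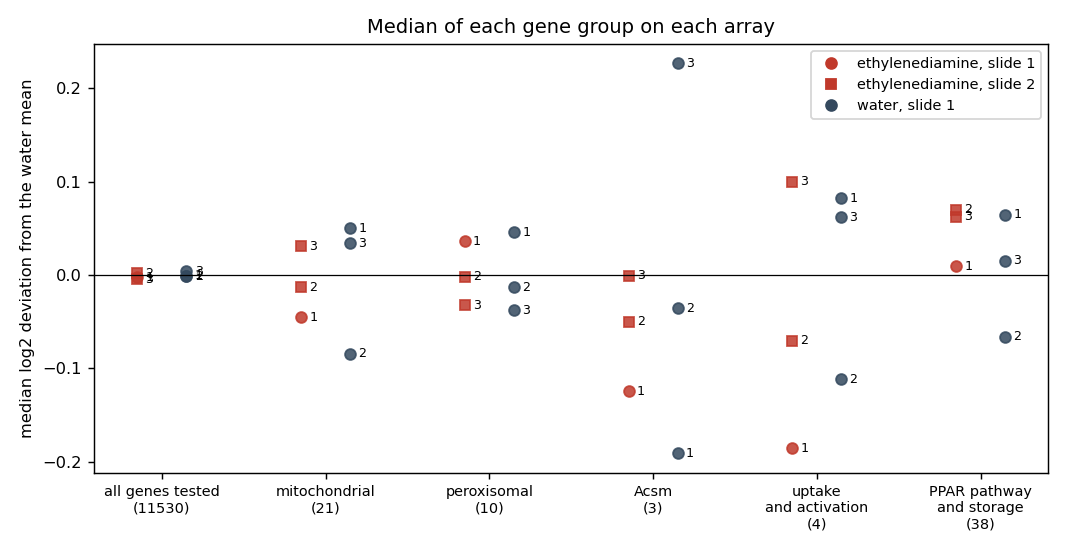
Median log2 deviation from the water mean of each gene group (horizontal axis, number of genes in brackets) on each array, ethylenediamine (red) left of water (dark), with the replicate number beside each point and squares for slide 2. The mitochondrial medians of the ethylenediamine arrays (-0.05 to 0.03) sit inside those of the water arrays (-0.08 to 0.05), whose lowest is water replicate 2.

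The wider pathway was read through 155 measured genes of 189 in lists of related enzymes. Over these, 9 on the higher and 15 on the lower side had an unadjusted p under 0.05, none passed the adjusted test by limma, and the median log2 fold change was 0.00. These are 15.5% of the 155 in both directions, against 10.4% of all genes. They are 5.81% on the higher side, against 5.39% of all genes, and 9.68% on the lower side, against 4.97% of all genes. By list, the share in both directions was 50% for omega oxidation, 27.8% for other peroxisomal enzymes and 25% for other mitochondrial oxidation. It was 14.3% for ketone body enzymes, 13% for other peroxisomal oxidation and 10.5% for peroxins. For the PPAR pathway and storage it was 7.9%, for uptake, binding and activation 5.26% and for other medium-chain synthetases 0%. All genes stood at 10.4%, and no list was tested as a set.

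Of 20 other genes of mitochondrial oxidation, 3 on the lower and 2 on the higher side reached that unadjusted level, with a median of -0.08. The mitochondrial acetyl-CoA synthetase Acss1 had scaled signals of 66.8, 60 and 56.4 on the ethylenediamine arrays, against 74.8, 80.4 and 84.6 on the water arrays, and stood at -0.39 ± 0.09 with an adjusted p of 0.329 by limma. The malonyl-CoA synthetase Acsf3 stood at -0.46 ± 0.12 and the short/branched-chain dehydrogenase Acadsb at -0.61 ± 0.22. Without water replicate 2, the highest array, Acadsb was at -0.36. Cpt1c, a carnitine palmitoyltransferase best known from brain, stood at 0.36 ± 0.10, and at 0.20 within slide 1. Acss1 was at -0.26 within slide 1. The list of other medium-chain synthetases and the acyltransferases that use their products had 3 measured genes. These were the synthetase Acsm1 at 0.03 ± 0.32, glycine N-acyltransferase (Glyat) at 0.07 ± 0.09 and its relative Glyatl1 at 0.14 ± 0.17, with Glyat as the median.

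Of 23 other genes of peroxisomal oxidation, 1 was lower and 2 were higher, with a median of -0.03. Slc27a2, a very-long-chain acyl-CoA synthetase of the peroxisome and endoplasmic reticulum, had scaled signals of 118.3, 117.4 and 119.03 on the ethylenediamine arrays, against 135, 130 and 134 on the water arrays, a narrow difference of -0.17 ± 0.05. The acyltransferases Baat and Acnat2 stood at 0.50 ± 0.17 and 0.33 ± 0.12. Acnat2 was dim, with scaled signals of 0.0617, 0.0593 and 0.0554 on the ethylenediamine arrays, against 0.0546, 0.0468 and 0.04 on the water arrays. Without water replicate 3 Acnat2 was at 0.22.

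Of 19 peroxins and membrane proteins of the peroxisome, 2 were lower and 0 higher, Acbd5 at -0.20 ± 0.06 and Pex6 at -0.20 ± 0.08, with a median of -0.07. Within slide 1 Pex6 was at -0.06. Of 18 other peroxisomal enzymes, 4 were lower and 1 higher, with a median of -0.06. Dhrs4, a carbonyl reductase, stood at -0.28 ± 0.06, and had scaled signals of 18.3, 18.9 and 17.7 on the ethylenediamine arrays against 22.7, 21.1 and 23 on the water arrays. The plasmalogen enzyme Gnpat stood at -0.19 ± 0.06, the glyoxylate enzyme Agxt at -0.28 ± 0.09, and phosphomevalonate kinase (Pmvk) at 0.24 ± 0.06.

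Further known targets of PPAR-alpha did not pass the adjusted test, which none of the 11530 genes passed (limma). Cyp4a1, a fatty acid omega-hydroxylase, had scaled signals of 50.7, 53.4 and 49.8 on the ethylenediamine arrays, against 44.6, 41.9 and 39.1 on the water arrays, a log2 fold change of 0.29 ± 0.07 with an adjusted p of 0.333 by limma. Cyp4a8 stood at 0.28 ± 0.08, Cyp4a2 at 0.05 ± 0.07 and Cyp4a3 at 0.02 ± 0.50. These are close paralogues, and cross-hybridisation was not tested. The Cyp4a3 signal ran from 126 to 348 in the ethylenediamine group and from 118.7 to 293 in the water group, so that its animals differed more within the groups than between them. Among the 7 ketone body enzymes, 1 was higher and 0 lower, namely the cytosolic thiolase Acat2 at 0.39 ± 0.08. In the omega-oxidation list 2 of 8 were higher (Cyp4a1 and Cyp4a8) and 2 were lower, Cyp4b1 at -0.42 ± 0.12 and Aldh3a2 at -0.22 ± 0.08.

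Of 19 other genes of uptake, binding and activation, 1 was lower, the carnitine transporter Slc22a5 at -0.24 ± 0.07, and 0 were higher, with a median of 0.06. Of 38 genes of the PPAR pathway and lipid storage, 2 were lower and 1 higher, with a median of 0.04. Plin2, which coats lipid droplets, had scaled signals of 33.9, 36.5 and 34.7 on the ethylenediamine arrays, against 29.6, 23.1 and 31.8 on the water arrays, and stood at 0.33 ± 0.13. Without water replicate 2 Plin2 was at 0.19, and its unadjusted p was under 0.05 in 9 of 19 alternatives. The desuccinylase Sirt5 stood at -0.23 ± 0.07, and at -0.15 within slide 1. Acacb, which makes the malonyl-CoA that acts on the carnitine step, stood at -0.46 ± 0.16, and was well above background on 2 of the 3 ethylenediamine arrays.

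**Figure D5:**
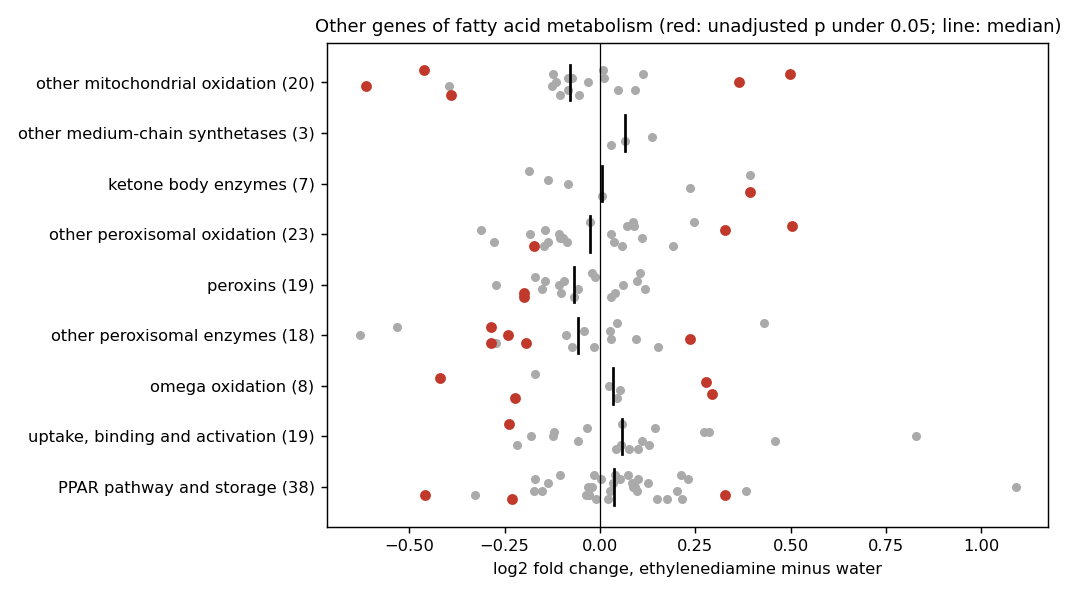
Log2 fold change, ethylenediamine minus water, of the measured genes of 9 related lists (rows, number of genes in brackets); red points had an unadjusted p under 0.05 and the black line is the median of the list. The medians run from -0.08 to 0.07, and red points lie on both sides of 0.

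The tissue label was checked against cell type markers. Of 14 proximal tubule markers, all 14 were measured. Their summed scaled signal was 1820 to 1840 in the ethylenediamine group and 1810 to 1840 in the water group. Most of that sum came from the brighter Slc13a3, Slc34a1, Slc22a6, Pck1, Slc22a8 and Slc5a2. Of the 14, Lrp2 and Slc5a12 (14.3%) were lower at the unadjusted level, against 4.97% of all genes. Without overlap of the groups, Lrp2 and Slc5a2 were lower and Slc22a6 was higher. Over all genes these shares were 8.27% lower and 9.2% higher. For 9 measured markers of the distal tubule and collecting duct, of 10 listed, the summed signal was 234 to 278 in the ethylenediamine group. It was 324 to 380 in the water group. All 9 had a negative log2 fold change, against 51.15% of all genes, with a median of -0.43. Of these 9, 5 (55.6%) were lower at the unadjusted level, against 4.97% of all genes. In these 5 the groups did not overlap, where 8.27% of all genes were lower without overlap. All 5 thick ascending limb markers were measured, with sums of 277 to 349 in the ethylenediamine group and 214 to 308 in the water group, mostly from Umod. All 8 glomerulus markers were measured, with sums of 52 to 66 in the ethylenediamine group and 61.9 to 70.3 in the water group. Of these, 7 had a negative log2 fold change, and the median was -0.11. For 7 measured markers of tubular injury, of 8 listed, the summed signal was 66.1 to 82.7 in the ethylenediamine group and 56.4 to 65 in the water group. Most of that sum came from the brighter Cdkn1a, Clu and Spp1. Of these 7, 4 (57.1%) were higher at the unadjusted level (Havcr1, Gpnmb, Spp1 and Lcn2), against 5.39% of all genes. The median log2 fold change was 0.95. Havcr1, at 2.56 ± 0.46, was well above background on 2 of the 3 water arrays. The others, Clu, Cdkn1a and Vcam1, stood at 0.40 ± 0.35, 0.10 ± 0.10 and -0.18 ± 0.19. Leukocyte markers, 7 of 9 measured, summed to 70.2 to 72 in the ethylenediamine group and 59.7 to 83.8 in the water group. Most of this was Lyz2, at 63.5 to 65.3 in the ethylenediamine group and 54.1 to 75.7 in the water group. All 7 had a negative log2 fold change, with a median of -0.05, and none reached an unadjusted p of 0.05 by limma. Inner medulla markers, 4 of 5 measured, summed to 9.38 to 11.8 in the ethylenediamine group and 10.3 to 11.6 in the water group. Skeletal and heart muscle markers, 6 of 9 measured, summed to 1.5 to 1.69 in the ethylenediamine group and 1.36 to 1.74 in the water group. Of the adipose markers 4 of 9 were measured, with sums of 1.13 to 2.06 in the ethylenediamine group and 1.31 to 1.41 in the water group, and Lep was well above background on no array. Of the adrenal cortex markers 3 of 6 were measured, with sums of 0.984 to 1.06 in the ethylenediamine group and 0.736 to 0.85 in the water group. Among them Hsd3b1 was 0.57 ± 0.08, with an adjusted p of 0.230 by limma, while Cyp11b1 and Cyp11b2 were above background on no array. In such bulk RNA, fewer cells of a type and less RNA per cell cannot be told apart, and the part of the distal tubule, injury and adrenal markers in the lower signals of Acsl1, Acsm3, Hadh and Ppargc1a was not tested.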

How the data were processed

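The 6 scanner files hold linear intensity per spot, background-subtracted by the authors in Agilent Feature Extraction, whose version is 10.7 per the submitters' processing notes and 10.7.1.1 in the headers, with a grid of rn4. The deposited value table holds the same intensity divided by a constant for each array, with medians from 0.1046 to 0.1104, and served as an alternative. Once each array's median offset was removed, 100% of probes lay within 2% of the intensity scaled by the 75th percentile. That check cannot show that the constant was the 75th percentile. Here the log2 of the intensity was taken and the array's 75th percentile subtracted. Control spots (1439) and 22 probes with an outlier flag were left out, and 37822 of 61515 probes were kept, those well above background throughout at least 1 group. Symbols came from RefSeq accessions (GRCr8, used for names and promoters only), which named 28194 probes. The brightest kept probe stood for each gene.

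The comparison used limma 3.58.1 and R 4.3.3 (lmFit, eBayes, Benjamini-Hochberg over 11530 genes), with 4 residual and 1.84 prior degrees of freedom. The labels describe 3 biological replicates per group, and this number limits the precision. Replicate numbers were not used to pair the animals in the fit as reported. The alternatives covered background, scaling, filter, probe choice, slide, replicate block, variance model and left-out arrays. For normexp (offset 50) the median spot signal took the place of the mean spot signal that had been planned. The members and all lists were chosen with earlier results of these data known. Every member is reported, and each other list by the up to 4 genes with the smallest unadjusted p under 0.05, or otherwise by the 2 smallest, with the further PPAR-alpha targets Cyp4a1, Cyp4a2 and Cyp4a3 always given. Some genes that the rule gave are not reported here. The cell type markers given by name and Acsm1 were named after their values were seen.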

Additional observations from a re-analysis of the deposited data

How the results depend on the processing

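No gene passed the adjusted threshold in the comparison as reported (limma, 1194 genes at an unadjusted p under 0.05). With a block for slide 10 genes passed, within slide 1 alone 6, with an intensity trend in eBayes 1, with every kept probe tested alone (an alternative chosen after seeing the data) 4, and with 1 array left out 0 to 1. Both slide analyses estimate the difference from ethylenediamine replicate 1 alone, and assume that a lone array varies like the others. None of the members passed in any of these. The count of lower members, 4 as reported, was 1 with a block for slide, 1 within slide 1 and 2 to 6 with 1 array left out. The count of higher members, 1 as reported, was 0 with a block for slide, 2 with an intensity trend, 2 with array weights and 1 to 3 with 1 array left out. The mitochondrial median log2 fold change was -0.0849 to -0.00293 with 1 array left out, the lowest without water replicate 2. The peroxisomal median was 0.0361 with a block for slide and within slide 1, and -0.0663 to -0.0113 with 1 array left out. The synthetase median was -0.395 with all probes of a gene averaged, -0.124 with a block for slide and within slide 1, and -0.125 to -0.00700 with 1 array left out. The synthetase median of -0.395 was the value of Acsm5 with its probes averaged, and these probes differed in sign. The cause of the other shifts was not tested. Samples with the same replicate number did not deviate together (correlations of -0.00304, 0.0224 and -0.00797). Such correlations cannot show whether the animals were matched by design. With the replicate block 0 genes passed, 3 members were lower (Acsl1, Acsm3 and Ppargc1a) and 1 was higher (Pdk4). Median scaling moved the median of all genes to -0.03, and normexp, quantile scaling, the deposited values, the other filters and robust eBayes left the counts of members within 1.5-fold of those reported. Dim probes had a higher floor on ethylenediamine replicate 1. The median log2 signal of probes below background on every array was -6.53 there. It was -7.48 and -7.55 on the other ethylenediamine arrays and -7.52 to -7.23 on the water arrays. This higher floor limits the reading of dim genes such as Acox2, Acox3, Acnat2 and Pdk4 within slide 1.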
